A study of Mus musculus with 22 samples.

Results

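The genes described here are the 10 core genes of peptide presentation by major histocompatibility complex (MHC) class I: B2m, H2-K1, H2-D1, Tap1, Tap2, Tapbp, Psmb8, Psmb9, Psmb10 and Nlrc5. They were chosen by name from the 54838 genes of the count table and matched through their Ensembl identifiers, and all 10 were found. The data are bulk RNA sequencing of small intestine from female FVB/N mice aged 8 to 14 weeks. The mice carried either the wild-type glucocorticoid receptor (GRWT) or, in the germline and so in every cell, a point mutant of that receptor that forms dimers poorly (GRDim), and were bred from heterozygous parents in a conventional animal house. Their drinking water was plain or held 25 mM ZnSO4 for 7 days. Of the 22 libraries, GRWT gave 5 on plain water and 5 with zinc, and GRDim gave 6 and 6. The design asks what zinc and the receptor genotype change in the gut, and whether the zinc effect depends on the genotype.

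MHC class I molecules show the immune system a sample of the peptides that a cell is making. The proteasome cuts cytosolic proteins into peptides, the TAP transporter pumps them into the endoplasmic reticulum, and tapasin and its helper proteins load them onto a heavy chain held by beta-2 microglobulin, which then travels to the cell surface. CD8+ T cells read these complexes, and the small intestine holds many such T cells within its epithelium. Interferon gamma, a cytokine of T and NK cells, raises the genes of this pathway through transcription factors such as IRF1 and through NLRC5, a regulator that acts at class I promoters. The same cytokine raises the catalytic subunits of the immunoproteasome, which take the place of those of the standard proteasome.

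On mm10 (GENCODE vM21), 7 of the 10 genes lie within the MHC region of chromosome 17. In order these are Tapbp (ENSMUSG00000024308, chr17:33915899-33929292, plus strand), H2-K1 (ENSMUSG00000061232, chr17:33996017-34000347, minus), Psmb9 (ENSMUSG00000096727, chr17:34181987-34187764, minus), Tap1 (ENSMUSG00000037321, chr17:34187553-34197225, plus), Psmb8 (ENSMUSG00000024338, chr17:34197721-34201454, plus), Tap2 (ENSMUSG00000024339, chr17:34203527-34216321, plus) and H2-D1 (ENSMUSG00000073411, chr17:35262730-35267499, plus). B2m (ENSMUSG00000060802) lies at chr2:122147686-122153083 on the plus strand. Nlrc5 (ENSMUSG00000074151, chr8:94434356-94527272, plus) and Psmb10 (ENSMUSG00000031897, chr8:105935735-105938444, minus) lie apart from each other on chromosome 8.

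By label, 12 libraries were whole ileum and 10 were IEC, the inner layer scraped from the distal ileum after a short lysis. Myh11, the myosin of smooth muscle, split them into 12 muscle-rich libraries, at 298 to 463 CPM (read counts scaled to library size), and 10 muscle-poor ones, at 3.22 to 20.5 CPM. The split did not follow the labels, since 7 of the 10 libraries labelled IEC and 5 of the 12 labelled ileum were muscle-rich, so each comparison was made apart within either class. Muscle-rich libraries numbered 3 in each of the 4 conditions. Muscle-poor libraries numbered 2 for GRWT on water, 2 for GRWT on zinc, 3 for GRDim on water and 3 for GRDim on zinc. Total counts ran from 13149951 to 15620744 per library, and the lowest count of any of the 10 genes in any library was 46, for Nlrc5. A muscle-poor library, GRWT zinc ileum replicate 3, stood apart from the rest: Fabp6, the ileal bile acid binding protein, was at 11.7 CPM there and at 4387 CPM or more in each of the other 21. The receptor mutation is a point mutation and cannot be checked from gene counts. Nothing in the labels names the individual mice, so p-values measure the spread between these libraries.

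In muscle-rich libraries of mice on water, class I genes stood higher in GRDim than in GRWT. A gene is called when its Benjamini-Hochberg adjusted p from edgeR's quasi-likelihood test is under 0.05 and its log2 fold change is beyond 0.8. By this rule 9 of the 10 genes were called higher, against 5.02% of the 15947 genes tested. The remaining gene, Tapbp, passed on the adjusted p alone, which 19.7% of all genes did in that direction. Every GRDim library lay above every GRWT library for all 10 genes, a separation that 26.4% of all genes also showed. The median log2 fold change of the 10 genes was 1.16, against -0.0028 over all genes tested. The fold ran from 10.5 for the regulator Nlrc5 through 5.25 for Tap1 and 4.25 for Psmb9 to 1.75 for H2-D1 and 1.54 for Tapbp.

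The values below are CPM scaled by the trimmed mean of M-values (TMM) over all 22 libraries. For Nlrc5, the regulator of class I transcription, the muscle-rich GRWT water libraries held 5.30, 4.12 and 3.51 CPM and the GRDim water libraries 45.9, 47.0 and 42.6 CPM. The groups were far apart, with every GRDim library above every GRWT library. The log2 fold change was 3.40 ± 0.25 (SE, adjusted p = 5.05e-06, edgeR), the largest of the 10 genes.

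The catalytic subunits of the immunoproteasome were all called higher. Psmb8, the chymotrypsin-like subunit, was at 70.7, 60.6 and 54.7 CPM in GRWT and at 244, 239 and 219 CPM in GRDim on water, a log2 fold change of 1.93 ± 0.09 (adjusted p = 9.45e-09, edgeR). Psmb9 was at 52.7, 41.8 and 37.6 CPM in GRWT and at 198, 189 and 169 CPM in GRDim, a log2 fold change of 2.09 ± 0.14. Psmb10 was the tightest of the 3 within a genotype, at 96.5, 96.8 and 98.7 CPM in GRWT and at 210, 204 and 202 CPM in GRDim. Its log2 fold change was 1.09 ± 0.05 (adjusted p = 2.18e-09, edgeR), a smaller rise than those of Psmb8 and Psmb9, with the smallest SE of the 10 genes. Psmb9 lies next to Tap1 on the opposite strand and shares 212 bases of exon with it, so reads there cannot be told apart unless strand was used in the counting, which is not stated.

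The chains of the TAP transporter differed in size of response. Tap1 was at 47.3, 40.6 and 31.0 CPM in GRWT and at 217, 217 and 185 CPM in GRDim on water, a log2 fold change of 2.39 ± 0.17 (adjusted p = 6.54e-06, edgeR). Tap2, its partner in the heterodimer, was at 36.2, 30.4 and 29.3 CPM in GRWT and at 81.0, 76.8 and 65.5 CPM in GRDim, a log2 fold change of 1.23 ± 0.09. Per kilobase of exon, mean levels were 7.24 CPM for Tap1 and 8.46 CPM for Tap2 in GRWT, with overlapping libraries, and 37.7 and 19.7 CPM in GRDim, without overlap. Tapbp encodes tapasin, which bridges the transporter and the heavy chain. It was at 152, 144 and 159 CPM in GRWT and at 234, 246 and 216 CPM in GRDim, a log2 fold change of 0.63 ± 0.06 (adjusted p = 3.55e-06, edgeR), the smallest of the 10. Tapbp shares 149 bases of exon with Zbtb22 on the same strand, and Zbtb22 was at a mean of 38.7 CPM.

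The chains of the finished molecule had the highest levels per kilobase of exon and rose by similar amounts. B2m, the invariant light chain, was at 1677, 1462 and 1579 CPM in GRWT and at 2913, 2573 and 2756 CPM in GRDim on water, a log2 fold change of 0.82 ± 0.08. H2-K1 was at 623, 581 and 607 CPM in GRWT and at 1166, 1036 and 1047 CPM in GRDim, a log2 fold change of 0.86 ± 0.07. H2-D1 was at 1676, 1564 and 1559 CPM in GRWT and at 2889, 2672 and 2749 CPM in GRDim, a log2 fold change of 0.81 ± 0.07. All 3 lay close to the fold threshold, and H2-D1 was at 0.79 without GRWT water ileum replicate 1. H2-K1 and H2-D1 are highly variable genes, FVB/N carries another haplotype than the C57BL/6J reference, and reads that map to several places were left out, so the levels of these 2 genes are uncertain. In the reference, 9.63% of the 50-base stretches of H2-K1 and 12.8% of those of H2-D1 also occur in other genes.

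**Figure D1:**
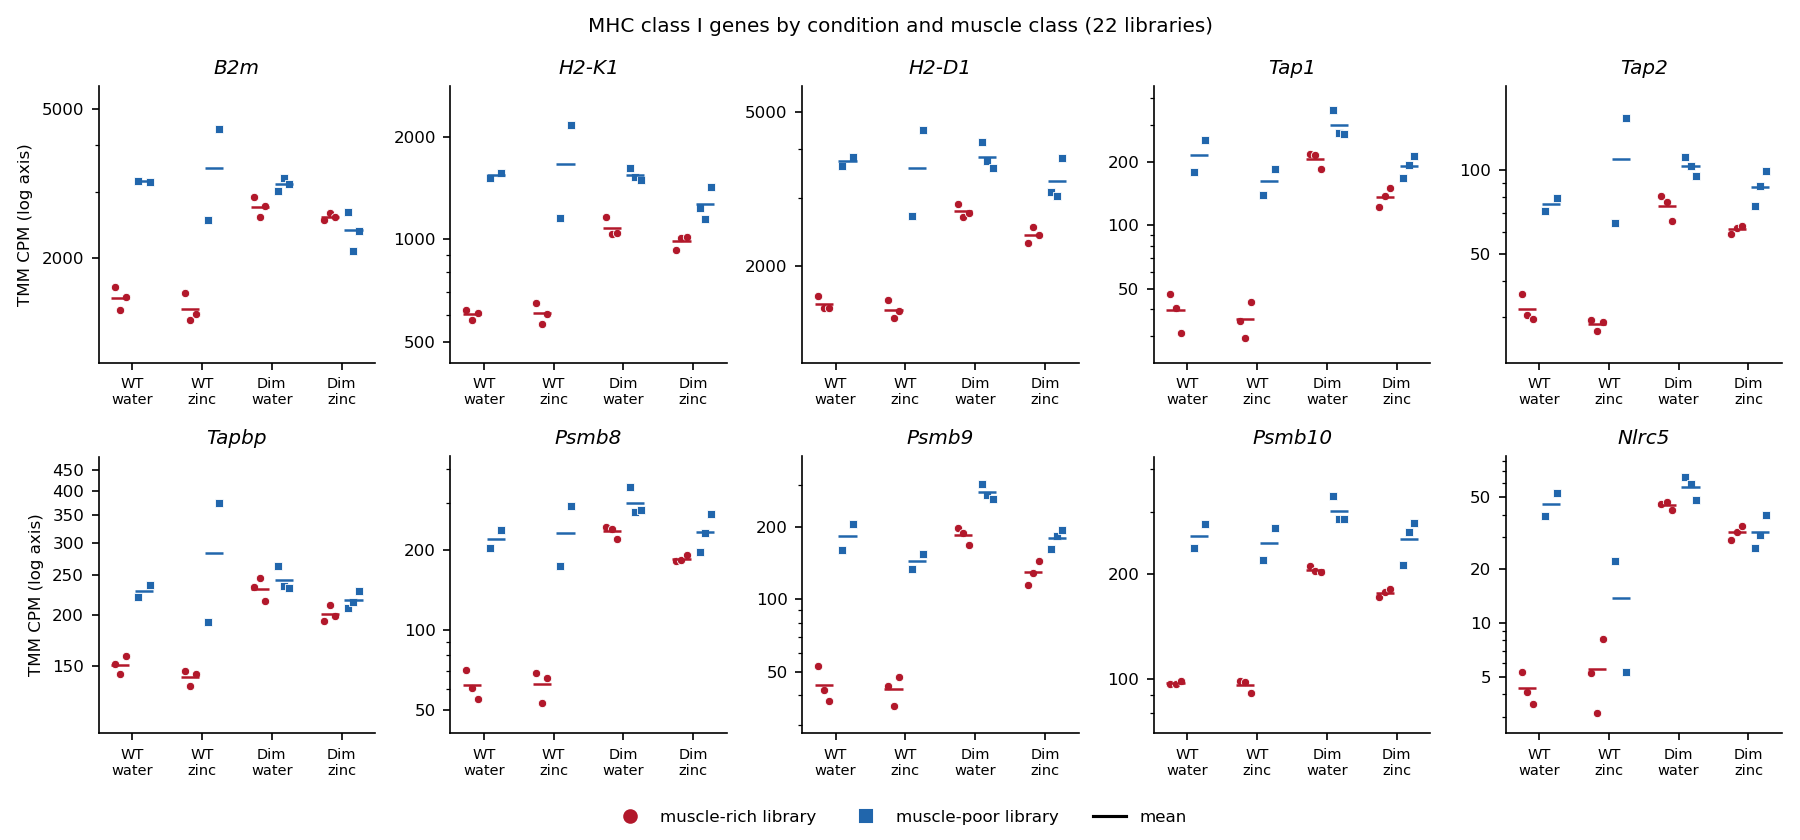
TMM-scaled CPM (log axis, a different range per gene) of the 10 class I genes in each of the 22 libraries, by genotype (WT, GRWT; Dim, GRDim) and drinking water. Red circles are muscle-rich and blue squares muscle-poor libraries, and bars are means; the red GRWT points lie below the red GRDim points for each gene, from 3.16 to 8.09 CPM for Nlrc5 in GRWT against 29.0 to 47.0 CPM in GRDim.

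Since the 10 genes moved together, their promoters were read. RefSeq windows from 250 bases before to 50 bases after the start site (GRCm38.p6) were at hand for 8 of the 10 genes, with 2 windows for H2-K1. Nlrc5 and Tap2 had no entry. Each window was searched on both strands for a gamma-activated site (GAS, TTCNNNGAA), a pair of IRF half-sites (GAANNGAAA), the same pair with a longer first half-site (GAAA, any 2 bases and GAAA, added after the windows had been seen), a CCAAT box (CCAAT) and a CRE half-site (TGACG), motifs that do not overlap each other in the matches found. The windows shown are those of the light chain, of both heavy chains, of Psmb8 and of Tap1, whose window also holds most of that of Psmb9, because these cover every kind of motif found. The RefSeq start sites of H2-D1, Psmb8, Psmb9 and Tapbp lie further inside the GENCODE spans given above than those of the other genes. The windows shown run 5′ to 3′ on the strand of the gene, with the matches in capitals.
B2m, chr2:122147437-122147736, plus strand: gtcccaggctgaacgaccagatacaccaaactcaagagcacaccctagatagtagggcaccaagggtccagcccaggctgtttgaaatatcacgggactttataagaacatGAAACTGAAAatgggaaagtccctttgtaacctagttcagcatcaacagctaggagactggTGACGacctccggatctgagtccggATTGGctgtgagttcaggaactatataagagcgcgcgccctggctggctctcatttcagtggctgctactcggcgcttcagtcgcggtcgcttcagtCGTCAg
H2-K1, chr17:34000284-34000583, minus strand: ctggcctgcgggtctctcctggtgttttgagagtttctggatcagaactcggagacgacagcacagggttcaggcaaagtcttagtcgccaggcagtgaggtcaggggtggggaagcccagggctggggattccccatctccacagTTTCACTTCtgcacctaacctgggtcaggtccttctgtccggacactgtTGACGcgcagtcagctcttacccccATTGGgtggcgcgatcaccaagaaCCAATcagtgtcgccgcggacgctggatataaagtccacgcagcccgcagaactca
H2-D1, chr17:35262844-35263143, plus strand: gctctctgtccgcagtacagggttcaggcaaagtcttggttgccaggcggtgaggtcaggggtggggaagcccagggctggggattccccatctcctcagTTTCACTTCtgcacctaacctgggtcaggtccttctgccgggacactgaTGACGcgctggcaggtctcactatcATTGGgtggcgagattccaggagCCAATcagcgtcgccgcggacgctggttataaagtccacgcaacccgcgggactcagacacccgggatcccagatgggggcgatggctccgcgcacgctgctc
Tap1, chr17:34187306-34187605, plus strand: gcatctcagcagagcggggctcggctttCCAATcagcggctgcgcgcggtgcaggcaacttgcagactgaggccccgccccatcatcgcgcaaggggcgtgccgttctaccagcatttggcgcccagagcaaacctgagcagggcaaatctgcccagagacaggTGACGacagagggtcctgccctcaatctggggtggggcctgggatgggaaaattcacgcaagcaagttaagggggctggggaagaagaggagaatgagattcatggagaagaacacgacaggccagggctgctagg
Psmb8, chr17:34197945-34198244, plus strand: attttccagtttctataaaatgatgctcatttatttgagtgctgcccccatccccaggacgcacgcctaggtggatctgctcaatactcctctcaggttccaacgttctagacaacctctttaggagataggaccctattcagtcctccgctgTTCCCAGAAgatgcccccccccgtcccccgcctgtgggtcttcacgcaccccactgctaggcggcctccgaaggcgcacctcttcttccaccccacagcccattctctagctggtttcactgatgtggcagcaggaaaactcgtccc

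H2-K1 and H2-D1 hold the same IRF pair, TTTCACTTC, followed in both by a CRE half-site and then by a CCAAT box on either strand. The pair starts 104 bases before the start site in this H2-K1 window and 150 bases before it in H2-D1. This pair occurs in 7.52% of the 32851 windows of the table. B2m alone of the 8 genes holds the longer pair, GAAACTGAAA, 139 bases before the start, against 3.44% of all windows. It also holds a CRE half-site 78 bases and a CCAAT box 53 bases before the start. Psmb8 alone has a GAS, TTCCCAGAA, 97 bases before the start, against 8.30% of all windows. A CCAAT box lies in the windows of 6 of the 8 genes, against 37.4% of all windows, and a CRE half-site in 5 of the 8, against 20.8%. The windows of Tap1 and Psmb9 overlap, and their box and half-site are the same bases. Both matches are therefore counted for both genes, so these counts are not of independent windows. Psmb10 has none of the 5 motifs. These are matches of letters in these windows and no evidence of binding.

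On zinc, class I genes of muscle-rich libraries again stood higher in GRDim than in GRWT. In these libraries 6 of the 10 genes were called higher in GRDim than in GRWT, against 2.43% of all genes tested. All 10 passed on the adjusted p alone, as 9.81% of all genes did in that direction, and for all 10 the groups did not overlap (17.5% of all genes). Nlrc5 was at 5.23, 3.16 and 8.09 CPM in GRWT on zinc and at 29.0, 32.2 and 34.7 CPM in GRDim on zinc, a log2 fold change of 2.52 ± 0.24 (adjusted p = 0.0001, edgeR). Tap1 was at 35.1, 29.1 and 43.3 CPM in GRWT and at 122, 139 and 151 CPM in GRDim, a log2 fold change of 1.92 ± 0.17. Psmb9 and Psmb8 followed with log2 fold changes of 1.59 ± 0.13 and 1.55 ± 0.09, then Tap2 with 1.11 ± 0.09 and Psmb10 with 0.87 ± 0.05. The values of B2m (0.80 ± 0.08), H2-K1 (0.69 ± 0.07), H2-D1 (0.63 ± 0.07) and Tapbp (0.50 ± 0.06) stayed under the fold threshold. The comparisons on water and on zinc use different libraries, while those of zinc with water share libraries with both.

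Markers of other cells moved with these differences. Of 10 markers of T and NK lymphocytes, 9 were called higher in GRDim than in GRWT on water in muscle-rich libraries and 7 on zinc, against 5.02% and 2.43% of all genes tested. Their summed level was 65.5 to 104 CPM in GRWT water, 56.7 to 95.4 CPM in GRWT zinc, 395 to 472 CPM in GRDim water and 226 to 230 CPM in GRDim zinc. The summed level of 7 markers of B and plasma cells was 1364 to 1761 CPM in GRWT water and 3668 to 4621 CPM in GRDim water, and 1048 to 1819 CPM and 3356 to 4285 CPM on zinc. That of 10 markers of macrophages and dendritic cells was 239 to 305 CPM and 409 to 445 CPM on water, and overlapped on zinc, at 251 to 422 CPM and 290 to 388 CPM. That of 10 markers of smooth muscle was 1967 to 2173 CPM and 1464 to 1670 CPM on water, and that of 9 epithelial markers was 20224 to 21268 CPM and 17845 to 19141 CPM, and both overlapped on zinc. No marker of these lists was at the floor in every library. The part of these cells in the class I differences was not tested, and in bulk tissue a change in the number of cells and a change in RNA per cell cannot be told apart.

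The label also moved with the genotype. All 3 muscle-rich GRDim water libraries were labelled IEC, while those of GRWT were 2 IEC and 1 ileum. With the IEC libraries alone on the water side (without GRWT water ileum replicate 1), 8 genes were called higher, against 3.89% of all genes, with log2 fold changes from 0.66 for Tapbp to 3.27 for Nlrc5, and all 10 passed on the adjusted p alone. A fit over all 22 libraries with the tissue label as covariate, in place of the split by muscle, called 0 of the 10 genes on water, with a median log2 fold change of 0.83, and 0 on zinc, where 0.742% and 0.0895% of all genes were called higher. On zinc the 3 muscle-rich GRDim libraries were labelled ileum, and those of GRWT were 2 IEC and 1 ileum.

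Zinc against water gave small values below 0 for all 10 class I genes in muscle-rich GRDim libraries. There 0 of the 10 were called (9 at an unadjusted p under 0.05 in edgeR, and 0 called by DESeq2), where 0.558% of all genes were called lower. On the adjusted p alone 6 fell, against 3.25% of all genes in that direction: Tap1 by 0.61 ± 0.16 (adjusted p = 0.0489, edgeR), Psmb9 by 0.54 ± 0.13, Psmb8 by 0.36 ± 0.09, Tap2 by 0.30 ± 0.08, Psmb10 by 0.24 ± 0.05 and Tapbp by 0.23 ± 0.06 on the log2 scale. For 9 of the 10 genes every zinc library lay below every water library, as for 14.7% of all genes; B2m was the exception. Nlrc5 was at 42.6 to 47.0 CPM on water and at 29.0 to 34.7 CPM on zinc, without overlap, but its log2 fold change of -0.52 ± 0.20 did not pass (adjusted p = 0.158, edgeR). T and NK markers were lower in the same zinc libraries, as given above, and so were markers of macrophages and dendritic cells, at 409 to 445 CPM on water and 290 to 388 CPM on zinc, and pan-leukocyte markers, at 247 to 265 CPM and 159 to 196 CPM. Epithelial markers were higher on zinc, at 17845 to 19141 CPM on water and 20613 to 22260 CPM on zinc. Their part in the zinc values was not tested. The muscle-rich GRDim water libraries were all labelled IEC and the zinc ones all ileum, so zinc and label cannot be told apart there.

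In muscle-rich GRWT libraries 0 of the 10 genes were called for zinc (0 at an unadjusted p under 0.05 in edgeR, and 0 called by DESeq2), where 0.107% of all genes were called higher and 0.0564% lower. Adjusted p-values ran from 0.472 to 0.961. The median log2 fold change was -0.044, and intervals of 2 SE to either side were narrow for the abundant genes: -0.24 to 0.06 for B2m, -0.12 to 0.15 for H2-K1 and -0.11 to 0.09 for Psmb10. That of Nlrc5, at 3.16 to 8.09 CPM, was wide (-0.21 to 0.92). Its highest library, GRWT zinc ileum replicate 1, was also the highest of the 3 in pan-leukocyte markers, at 315 CPM against 97.8 and 76.3 CPM, and in macrophage and dendritic cell markers, at 422 CPM against 314 and 251 CPM. Without it the log2 fold change of Nlrc5 was -0.025 (adjusted p = 0.976, edgeR), and the part of these cells was not tested. The difference between the zinc effects of the genotypes was below 0 for all 10 genes, from -0.88 ± 0.35 for Nlrc5 to -0.02 ± 0.11 for B2m. None passed (lowest adjusted p = 0.149 for Psmb10, edgeR; 4 genes at an unadjusted p under 0.05, and 0 called by DESeq2), against 0.0376% of all genes in that direction.

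In muscle-poor libraries no class I gene passed the test between genotypes with all 10 libraries in the fit. On water, 0 of the 10 genes were called (1 at an unadjusted p under 0.05 in edgeR, and 0 called by DESeq2), where 0.0288% of 13908 genes were called higher. Values of Nlrc5 overlapped, at 39.3 and 53.1 CPM in GRWT and 65.0, 59.1 and 48.2 CPM in GRDim. B2m was at 3208 and 3201 CPM in GRWT and at 3016, 3265 and 3160 CPM in GRDim, a log2 fold change of -0.03 with an interval of 2 SE to either side from -0.51 to 0.44. The groups did not overlap for Tap1, Tap2, Psmb8, Psmb9 and Psmb10, with GRDim higher, as for 21% of all genes. Of these Psmb9 differed most, at 160 and 207 CPM in GRWT and 303, 273 and 263 CPM in GRDim, a log2 fold change of 0.60 ± 0.15 (adjusted p = 0.535, edgeR). Without GRWT zinc ileum replicate 3, a library of neither group, its value was 0.60 and it passed on the adjusted p alone (adjusted p = 0.0159, edgeR), as 0.886% of all genes did in that direction, the only one of the 10 to do so. T and NK markers summed to 212 and 446 CPM in the GRWT water libraries here and to 317 to 516 CPM in GRDim water, so these groups overlapped. B and plasma cell markers did not overlap, at 15.5 and 16.04 CPM in GRWT and 29.2 to 42.8 CPM in GRDim water. Epithelial markers did not overlap either, at 30377 and 31714 CPM in GRWT and 27384 to 28945 CPM in GRDim water. The part of these cells in the class I values was not tested.

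With 2 GRWT libraries per group, 1 of them set apart, the muscle-poor class gave wide errors. GRWT zinc ileum replicates 2 and 3 differed from each other by more than the other groups did, at 2537 and 4420 CPM for B2m, 64.8 and 153 CPM for Tap2 and 22.1 and 5.32 CPM for Nlrc5. In these TMM-scaled values replicate 3 was the higher for each of the 10 genes but Nlrc5. Its TMM factor was 0.643, against 0.923 in replicate 2 and 0.907 to 1.12 in the other libraries. A lower factor raises the scaled values, so where the 2 libraries lie close the direction depends on the scaling. On zinc, GRDim against GRWT gave 0 called genes (2 at an unadjusted p under 0.05 in edgeR, and 0 called by DESeq2), where 0.0431% of all genes were called higher and 0.0144% lower. Without replicate 3 the count stayed at 0 and the median log2 fold change moved from -0.083 to 0.37. Without replicate 2, leaving replicate 3 as the lone GRWT zinc library, 5 were called, 4 of them lower in GRDim and Nlrc5 higher, but so were 14.9% of all genes lower and 16.5% higher. The fit then assumes that this lone library, the one low in Fabp6, varies like the other groups.

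Zinc against water in muscle-poor GRWT libraries gave 0 called genes (1 at an unadjusted p under 0.05 in edgeR; DESeq2 called 1), where 0.036% of all genes were called higher and 0.00719% lower. The median log2 fold change was 0.034, and -0.39 without replicate 3, where all 10 genes had a value below 0 and none passed. Without replicate 2, Tap2 was called higher (1.05) and Nlrc5 lower (-3.09), again with replicate 3 as the lone GRWT zinc library and its spread taken from the other groups, and 14% of all genes were then called higher and 16.2% lower. In muscle-poor GRDim libraries the zinc values were below 0 for all 10 genes and 0 were called (2 at an unadjusted p under 0.05 in edgeR, and 0 called by DESeq2), against 0.0288% of all genes called lower. Psmb9 went from 303, 273 and 263 CPM on water to 162, 183 and 195 CPM on zinc, with a log2 fold change of -0.63 ± 0.14 (adjusted p = 0.251, edgeR). Tap1 went from 352, 275 and 272 CPM to 167, 194 and 213 CPM, with -0.64 ± 0.19. The groups did not overlap for 8 of the 10 genes, as for 12.8% of all genes in that direction. T and NK markers summed to 317 to 516 CPM in the water and 190 to 280 CPM in the zinc libraries of this comparison, and B and plasma cell markers to 29.2 to 42.8 CPM and 9.99 to 24.6 CPM, and their part in these values was not tested. Leaving out GRWT zinc ileum replicate 3, which is in neither group but in the same fit, 4 of the 10 passed lower on the adjusted p, against 2.11% of all genes, and 1 of them, Nlrc5, was called (-0.82, adjusted p = 0.0355, edgeR), against 0.879%. Labels in this comparison are the reverse of those in the muscle-rich one: the water libraries were all ileum and the zinc libraries all IEC. The zinc-by-genotype difference in this class passed for 0 of the 10 genes (0 at an unadjusted p under 0.05 in edgeR, and 0 called by DESeq2) and 0% of all genes. Without GRWT zinc ileum replicate 2, with the same lone library, it passed for 7 of the 10, 6 of them lower, but also for 19.7% of all genes higher and 19.6% lower. Without replicate 3 it passed for 0 of the 10 and 0% of all genes.

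**Figure D2:**
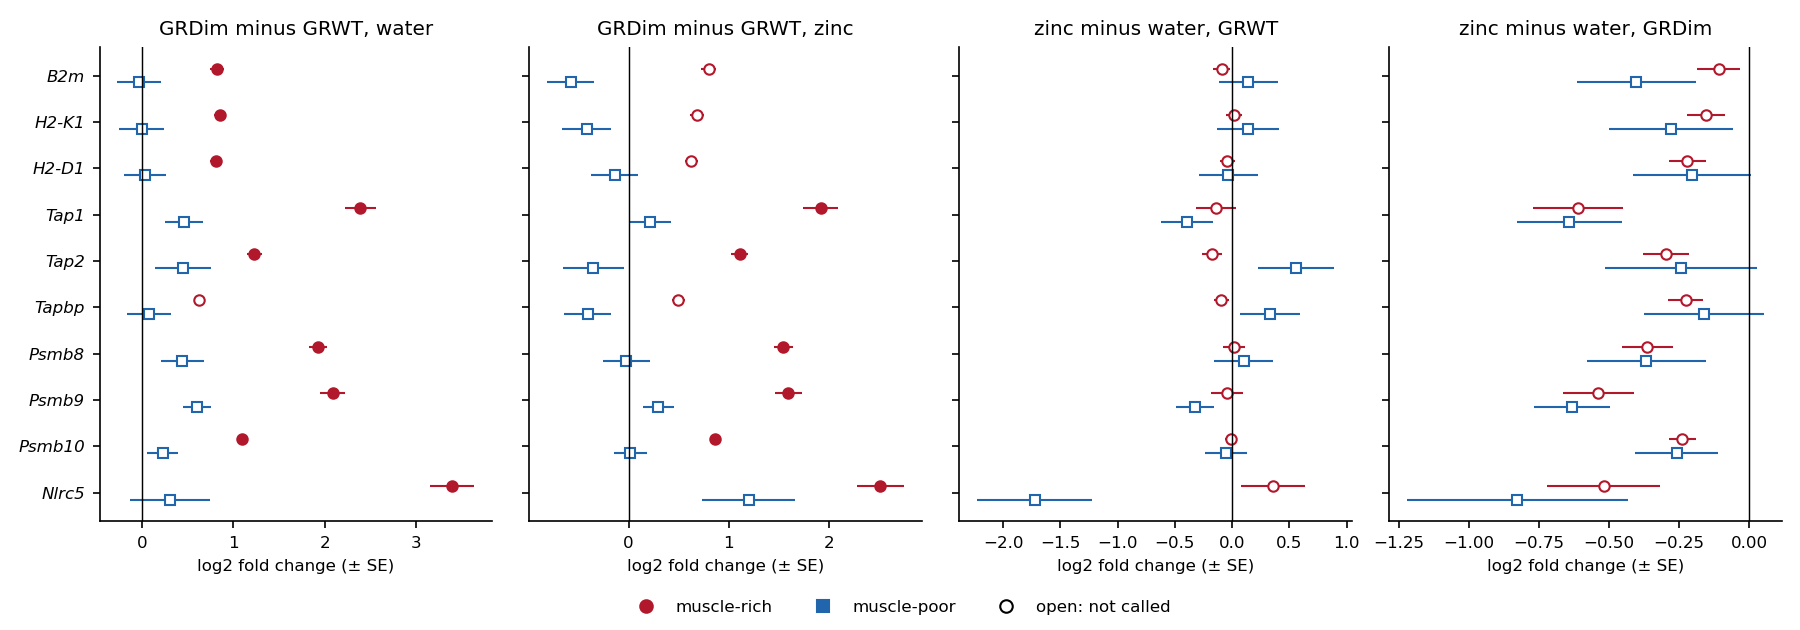
Log2 fold change ± SE (x axis) of the 10 class I genes (y axis) for genotype on water, genotype on zinc, zinc in GRWT and zinc in GRDim. Red circles are muscle-rich and blue squares muscle-poor libraries, filled where called; filled symbols appear in the muscle-rich genotype panels alone, 9 on water and 6 on zinc.

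Set against muscle-poor libraries of the same condition, muscle-rich GRWT libraries were low in class I transcripts, and on water muscle-rich GRDim libraries less so. In GRWT on water, 9 of the 10 genes were called lower in muscle-rich libraries, against 3.6% of 16389 genes, and Tapbp passed on the adjusted p alone (15.6% of all genes). Nlrc5 differed by -3.42 ± 0.40, Tap1 by -2.45 ± 0.20, Psmb9 by -2.06 ± 0.15 and Psmb8 by -1.82 ± 0.18 on the log2 scale. In GRWT on zinc all 10 were called lower, against 9.12% of all genes, and the median over all genes was itself shifted by 0.096 there. Without replicate 3 of GRWT zinc ileum 7 were called, against 2.04% of all genes, and without replicate 2 the value of Nlrc5 was 0.06 against the lone replicate 3 (adjusted p = 0.926, edgeR), so its call there rests on replicate 2. In GRDim 0 genes were called on water (7 at an unadjusted p under 0.05 in edgeR, and 0 called by DESeq2) and 0 on zinc (6 and 0), where 2.59% and 2.01% of all genes were called lower. On the adjusted p alone 5 and 4 of them were lower, against 16.4% and 16.2% of all genes. Psmb10 had the lowest adjusted p in both, at -0.56 ± 0.10 on water and -0.51 ± 0.10 on zinc.

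The difference of the genotype effect between the classes on water was tested itself. It was above 0 for all 10 genes and passed for 5, against 0.793% of all genes in that direction: Nlrc5 at 3.07 ± 0.51, Tap1 at 1.91 ± 0.26, Psmb9 at 1.47 ± 0.20, Psmb8 at 1.46 ± 0.24 and Psmb10 at 0.85 ± 0.15 (adjusted p from 0.00062 to 0.00648, edgeR). Leaving out GRWT zinc ileum replicate 2 or replicate 3, which takes no library from this contrast, made it pass for all 10, and the share of all genes that passed higher rose with it, to 3.9% and 3.82%. With replicate 3 of GRWT water ileum left out it passed for Tap1, Psmb8 and Psmb9, against 0.189% of all genes. The zinc effect did not pass as different between the classes for any gene, in GRWT (0 of 10; 2 at an unadjusted p under 0.05 in edgeR; DESeq2 called 1; 0.0061% of all genes higher and 0.0122% lower) or in GRDim (0 of 10; 0 and 0). T and NK markers were also lower in the muscle-rich class in GRWT and overlapped between classes in GRDim: on water they summed to 65.5 to 104 CPM in muscle-rich and 212 to 446 CPM in muscle-poor GRWT libraries, and to 395 to 472 CPM and 317 to 516 CPM in GRDim. Epithelial markers summed to 20224 to 21268 CPM in muscle-rich and 30377 to 31714 CPM in muscle-poor GRWT water libraries. In GRDim water they summed to 17845 to 19141 CPM and 27384 to 28945 CPM. The part of the T and NK cells in the class I values was not tested.

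**Figure D3:**
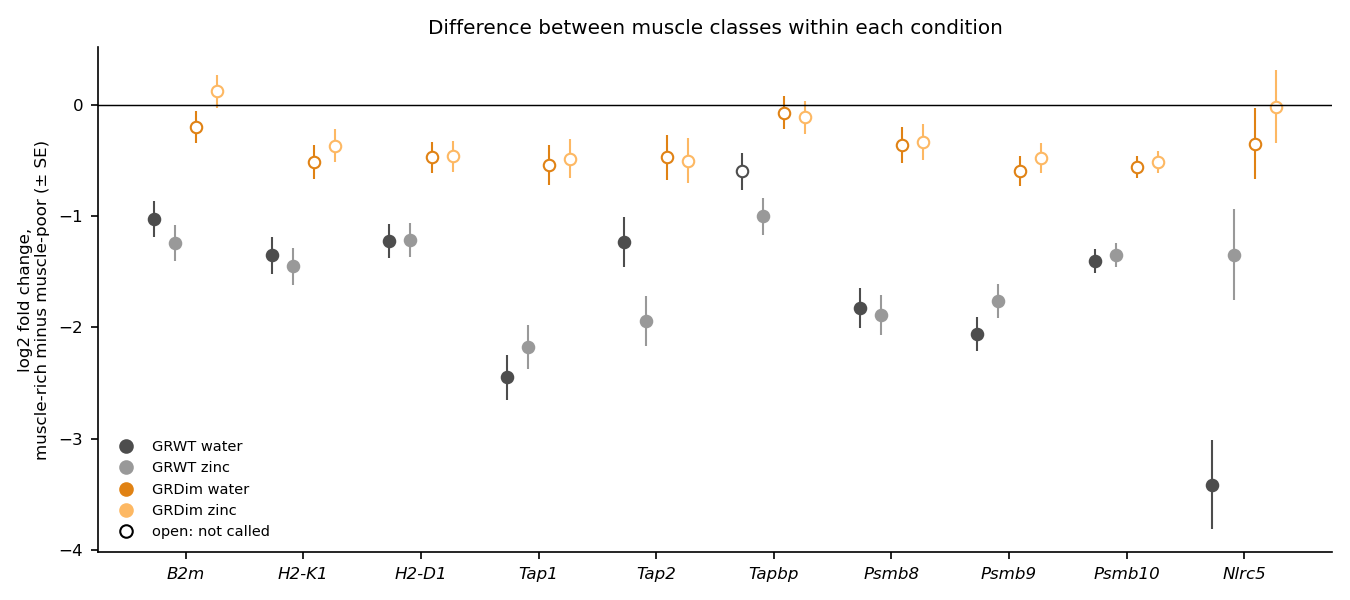
Log2 fold change ± SE of muscle-rich against muscle-poor libraries (y axis) for each of the 10 class I genes (x axis), with a colour for each of the 4 conditions and filled symbols where called. The GRWT symbols lie lowest, down to -3.42 for Nlrc5 on water, and no GRDim symbol is filled.

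Because Psmb8, Psmb9 and Psmb10 replace Psmb5, Psmb6 and Psmb7 in the proteasome, their levels per kilobase of exon were set against each other. In muscle-rich libraries the ratio of Psmb8 to Psmb5 was 1.25 ± 0.25 (SD, n = 3) in GRWT water and 3.87 ± 0.34 in GRDim water. The ratio of Psmb9 to Psmb6 was 0.265 ± 0.046 and 0.917 ± 0.064, and that of Psmb10 to Psmb7 was 3.73 ± 0.12 and 6.16 ± 0.39. On zinc the 3 ratios were 1.15, 0.227 and 3.58 in GRWT and 3.09, 0.705 and 5.84 in GRDim. For each pair the GRWT and GRDim muscle-rich libraries did not overlap. In muscle-poor libraries the 3 ratios were 2.84, 0.785 and 7.14 in GRWT water, all above the muscle-rich GRWT values, and stood at 3.82, 1.09 and 7.93 in GRDim water. On water the genotypes did not overlap for any of the 3 ratios in this class either. In muscle-poor libraries on zinc the ratios were 3.86, 0.619 and 8.75 in GRWT and 2.96, 0.722 and 7.86 in GRDim. In these zinc libraries the genotypes overlapped for Psmb8 over Psmb5 and for Psmb10 over Psmb7, and did not for Psmb9 over Psmb6. These are ratios of transcript levels and say nothing of the subunits in assembled proteasomes.

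The constitutive subunits themselves differed by less. In muscle-rich libraries on water, Psmb5 was at 13.3 ± 1.0 CPM in GRWT and 16.1 ± 0.5 CPM in GRDim (SD, n = 3). Psmb6 was at 85.1 ± 5.0 and 103 ± 4 CPM, and Psmb7 at 52.4 ± 1.1 and 67.1 ± 2.7 CPM. Their log2 fold changes of 0.29, 0.29 and 0.37 passed on the adjusted p alone, so none was called.

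**Figure D4:**
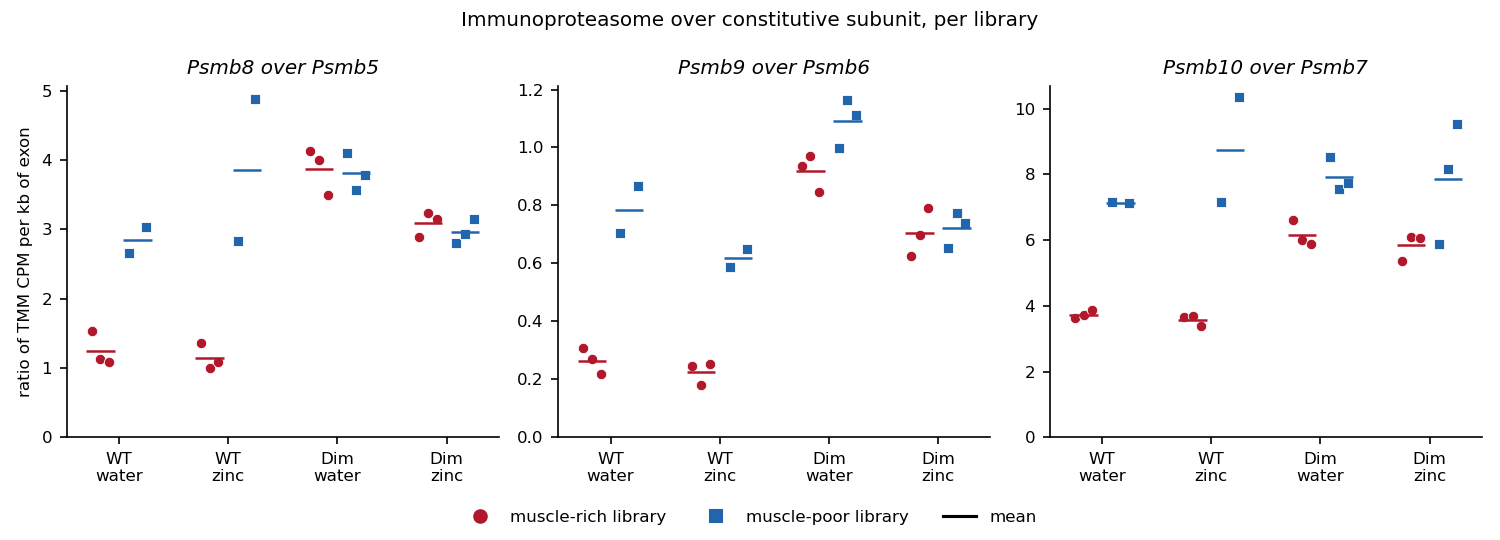
Ratio of each immunoproteasome subunit to the constitutive subunit it replaces, from TMM CPM per kilobase of exon (y axis, from 0), in each of the 22 libraries by condition (x axis). Red circles are muscle-rich and blue squares muscle-poor libraries, and bars are means; the muscle-rich mean of Psmb8 over Psmb5 is 1.25 in GRWT water and 3.87 in GRDim water.

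Around the core genes, some genes of the wider pathway were also higher in muscle-rich GRDim libraries on water. Of 4 proteasome activators, Psme1 and Psme2, the interferon-inducible lids of the proteasome, were called higher with log2 fold changes of 0.86 ± 0.06 and 1.03 ± 0.06. Of 6 peptide-trimming enzymes 0 were called (4 passed on the adjusted p alone, all higher, as 19.7% of all genes did); the trimming peptidase of the endoplasmic reticulum, Erap1, had the largest value, 0.52 ± 0.06, and was named after its value was seen. Of 6 loading factors and chaperones, Tapbpl was called (1.12 ± 0.05), a relative of tapasin that edits peptides. Among regulators of class I transcription, Irf8 (1.49 ± 0.07) and Irf1 (0.99 ± 0.08), transcription factors of the interferon response, were called higher. Irf1 was at 194, 227 and 174 CPM in GRWT and at 395, 399 and 376 CPM in GRDim.

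Of 18 other heavy chains that pair with B2m, 7 were called higher in the same comparison, against 5.02% of all genes, led by H2-Q7 (2.52 ± 0.27), H2-Q6 (2.12 ± 0.22), H2-M3 (1.3 ± 0.16) and H2-Q4 (1.13 ± 0.09). The H2-Q genes are near copies of each other, so the split of reads between them is uncertain. Of 6 genes of interferon gamma and its receptor pathway, Ifng and Socs1 were called higher and Ifngr1, Ifngr2 and Jak2 passed lower on the adjusted p alone (18.9% of all genes), with -0.34, -0.29 and -0.30. Socs1, an inhibitor of the receptor's kinases, had a log2 fold change of 2.57 ± 0.18. Ifng itself was rare, with 80 counts over the 3 GRDim water libraries (16 to 34 each) and 5 over the 3 GRWT ones (1 to 3 each), a ratio of 15.8 with an exact 95% counting interval from 6.51 to 50.1. In muscle-poor libraries on water it had 62 counts in 3 GRDim and 18 in 2 GRWT libraries, a ratio of 2.25 (1.31 to 4.04). These intervals cover counting error only. On zinc in muscle-rich libraries, where 2.43% of all genes were called higher, Tapbpl, Irf8, Irf1, H2-Q6, H2-Q7, H2-M3, Socs1 and Ifng were again called higher in GRDim, with log2 fold changes of 0.94, 1.05, 1.03, 1.32, 1.48, 0.88 and 1.61 for the 7 before Ifng. Ifng had 39 counts over the 3 GRDim zinc libraries (11 to 14 each) and 2 over the 3 GRWT ones (0 to 1 each). Each of these GRWT counts is under the floor of 3. The ratio was 19.9, with an exact 95% counting interval from 5.15 to 170. Psme1 (0.62), Psme2 (0.78), H2-Q4 (0.67) and H2-T23 (0.57) passed there on the adjusted p alone, and H2-Q10 (0.51) and H2-T24 (-0.03), also called on water, did not pass. Zinc in muscle-rich GRDim libraries called Socs1 lower (-1.10 ± 0.17) and no other gene of these lists. In muscle-poor libraries on water 0 genes of these 7 lists were called in edgeR, and 0.0288% of all genes.

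**Figure D5:**
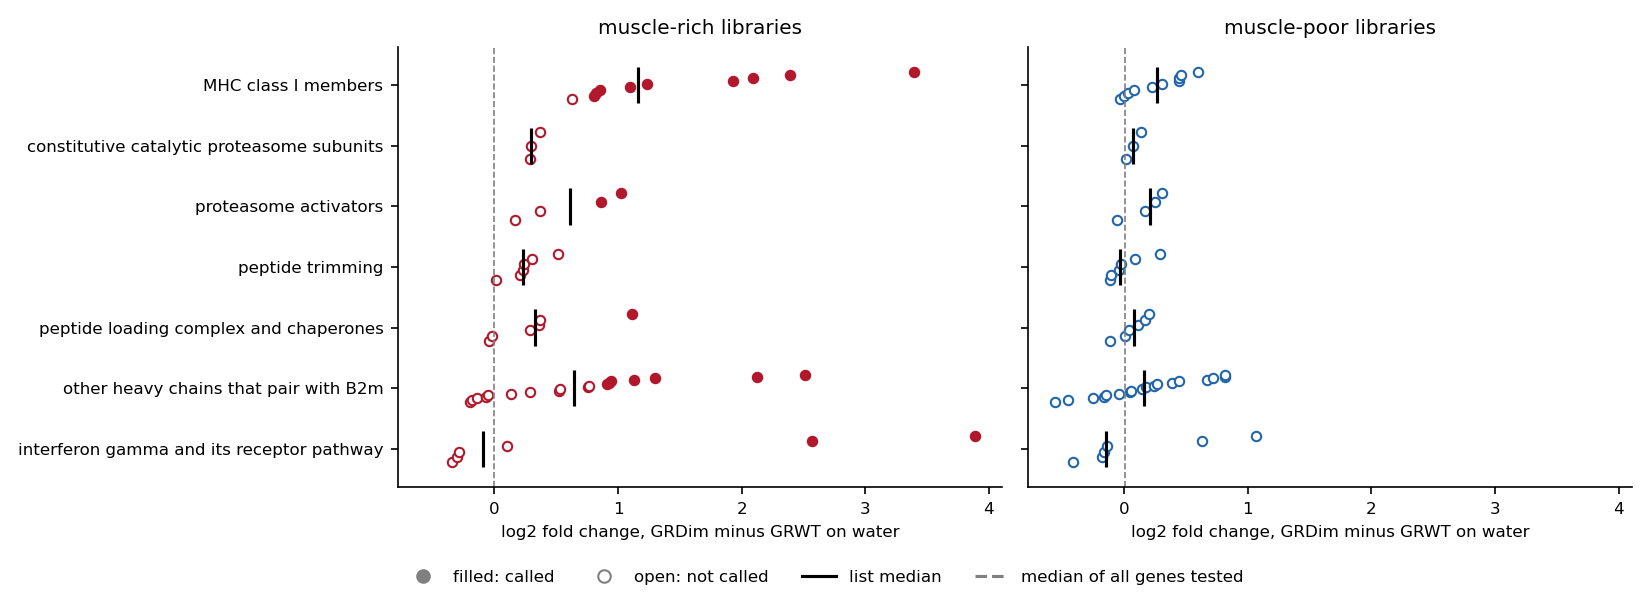
Log2 fold change of GRDim against GRWT on water (x axis) for each gene of the core set and of 6 lists of the wider pathway (y axis), in muscle-rich (left) and muscle-poor (right) libraries. Circles are genes, filled where called, black bars are list medians and the dashed line is the median of all genes tested; filled circles appear in the left panel alone, and the core set has the highest median there, 1.16.

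The order of the 10 genes by level per kilobase of exon was largely the same in all conditions. In muscle-rich GRWT water libraries B2m led with 1829 CPM per kb, followed by H2-D1 (620), H2-K1 (205), Psmb10 (57.1), Tapbp (41.8), Psmb8 (18.3), Psmb9 (12.03), Tap2 (8.46), Tap1 (7.24) and Nlrc5 (0.507). In this group Tap2 and Tap1 overlapped in range and all other neighbours did not. In muscle-rich GRDim water libraries Tap1 (37.7) stood above Tap2 (19.7), and Psmb8 (69.2) lay above Tapbp (64.0) with overlap. B2m, H2-D1, H2-K1 and Psmb10 held the top 4 places and Nlrc5 the last in each of the 8 groups of class and condition.

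Across the 12 muscle-rich libraries the levels of the 10 genes ran in parallel. The Pearson correlation of each gene's log2 level with the mean standardised level of the other members ran from 0.974 for Tapbp to 0.997 for Psmb8. Across the 10 muscle-poor libraries it ran from 0.021 for Nlrc5 to 0.934 for Psmb8. Outside the set, the genes whose pattern over the muscle-rich libraries was most like the mean of the set, out of 12751 compared, included Tapbpl (r = 0.9963), Zbp1, Upp1, Gbp8, Itgae, Apol10a, Psme2, Igtp and Psme2b (r = 0.9913). Over the muscle-poor libraries their correlations ran from 0.266 for Upp1 to 0.974 for Psme2. The points share the genotype difference described above and the scaling, and such correlations describe these libraries only. Psme2b is a near copy of Psme2, so reads of the pair may be split between them.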

How the data were processed

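Libraries were stranded and single-end (TruSeq). The authors mapped reads to mm10 with HISAT2 2.0.4 and counted them per gene with featureCounts, without multi-mapping reads; Trimmomatic and SAMtools are also named in the submitters' processing notes. The annotation release and strand setting are not given in the sources used here. The deposited values are raw read counts for 54838 genes, of which 54809 were found in GENCODE vM21 (GRCm38). For GRDim water ileum, the same column name occurs 2 times, and these libraries were left unnumbered.

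Counts were tested in R 4.3.3 with edgeR 4.0.16 (TMM, filterByExpr, robust quasi-likelihood F tests), apart for muscle-rich (Myh11 over 100 CPM) and muscle-poor libraries, with a coefficient per condition. Comparisons between classes came from a fit over all 22 libraries with a coefficient per condition and class. P-values were adjusted over all genes tested, and calls used an adjusted p under 0.05 and a log2 fold change beyond 0.8, or the adjusted p alone for differences of effects. The SE was derived from F, and displayed CPM are TMM-scaled over all libraries. Likeness used log2(CPM + 0.5) for genes with a mean of at least 1 CPM. A count of 3, the floor of detection, equals 0.192 to 0.228 CPM, and reads carry no molecular identifiers. The test was tested on simulated counts.

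The 10 genes, the pathway lists, the split by muscle and the tests were chosen with earlier results of these data known. Named were the 10 genes, Psmb5, Psmb6, Psmb7 and Irf1, up to 4 further called genes per list and muscle-rich comparison, and the 10 genes most like the set, except 1 gene that is not reported here. Alternatives were DESeq2 1.42.0, other scaling and filters, other designs and leaving out each library. Replicates of a group and class differed by more than sampling noise, and each was counted as a sample. That difference does not show that they came from different mice, which the labels do not name.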

Additional observations from a re-analysis of the deposited data

Results flagged for a closer look

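Among the values of the 10 genes in the 4 conditions, taken over both muscle classes, 2 of 40 groups held a library far from the others. Chance gives such a flag in about 1 group in 20 where the libraries of a group are alike. These groups pool muscle-rich and muscle-poor libraries, so that rate cannot be set against the flags here. Tapbp was highest in GRWT zinc ileum replicate 3, at 374 CPM, and its gap to the next library took 0.759 of the range of the 5 GRWT zinc libraries. Nlrc5 was highest in GRWT zinc ileum replicate 2, at 22.1 CPM, with a gap of 0.74 of the range. Both libraries are muscle-poor, and replicate 3 is the library in which Fabp6 was at 11.7 CPM.

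The effect of genotype on water differed between muscle-rich and muscle-poor libraries, by a test of the difference itself, for 5 genes. On the log2 scale the muscle-rich effect exceeded the muscle-poor one by 3.07 for Nlrc5, 1.91 for Tap1, 1.47 for Psmb9, 1.46 for Psmb8 and 0.846 for Psmb10.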

How the results depend on the processing

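Of 3820 values of the 10 genes under an alternative setting, 3692 kept their side of the threshold (171 of them changed sign, called in neither fit), 75 gained a call, 51 lost it and 2 reversed. The cause of a change was not tested beyond what pooling both classes or leaving out libraries does by construction. For genotype on water in muscle-rich libraries (9 called), the fit over both classes with muscle class as covariate called 5 and the fit with the tissue label 0; leaving out a library gave 7 to 9. For genotype on zinc there (6 called) these fits gave 3 and 0, and leaving out a library 6 to 7. In muscle-poor libraries the covariate fit, which pools both classes, called 5 genes on water and 3 on zinc where the class alone called 0, and the fit over 8 cells called 1 on zinc. Leaving out a library called 0 to 5 genes for genotype on zinc, 0 to 2 for zinc in GRWT, 0 to 1 for zinc in GRDim and 0 to 7 for the interaction in muscle-poor libraries. The highest of each came without GRWT zinc ileum replicate 2, and zinc in GRDim also gave 1 without replicate 3. Zinc in muscle-poor GRWT gave 1 called with DESeq2 and 1 with the fit over 8 cells. With library totals in place of TMM, GRWT zinc between classes gave 6 called instead of 10 and genotype by class 8 instead of 5; leaving out a library gave 7 to 10 and 3 to 10. Zinc in GRWT by class gave 1 called with DESeq2, and 0 to 5 without a library. Nlrc5 between classes in GRWT zinc ran from -1.972 without GRWT zinc ileum replicate 3 to 0.056, a reversal, without replicate 2.

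Same-numbered libraries of different groups did not deviate together (25 pairs, r from -0.10 to 0.13, median -0.016). Of 20 numbered libraries 0 matched their own number best. These pairs lie across genotypes or drinking waters. An ileum and an IEC library of the same condition never share a number, so whether they came from the same mouse was not tested. With the replicate number as a block and muscle class as covariate, 6 genes were called for genotype on water and 3 on zinc, as without the block on the same libraries (6 and 3; a fit added after the data were seen). For zinc in GRDim the fit with the block called 2 where either class alone called 0. That fit also pools both classes and leaves out the unnumbered libraries, so the change cannot be put down to the block. Psmb8 for genotype on zinc in muscle-poor libraries was 0.948 with the block (adjusted p = 0.0163, edgeR), 0.868 without it on the same libraries and -0.025 within the class. Depth limits Nlrc5 and Ifng most, and 2 libraries per GRWT group limit the muscle-poor class.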
